A study of Mus musculus with 4 samples.

Results

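Genes that run the cell division cycle and copy DNA were examined in mouse tibialis cranialis, a shin muscle of the hind leg, after injection of AAV8 ProMyo or saline. The set held 38 genes picked by name for their known function: cyclins and their kinases, kinase inhibitors, the replicative helicase, enzymes of DNA synthesis, and the machinery of mitosis. Of these, 37 had at least 1 probe set with a single gene symbol, out of 18193 such genes on the array, and 36 of them were among the 15102 genes bright enough to be tested. Bub1 fell below that filter, and the expression of Ccnb1 was not analysed here. Each gene was read at its brightest probe set.

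The treated muscles had received AAV8 ProMyo, an adeno-associated virus that the study used to inhibit myostatin, a secreted inhibitor of muscle growth. The labels do not give the promoter or the dose. The control muscles were the same muscle of the other leg of the same animals, injected with saline and no virus, so effects of the virus itself and of ProMyo cannot be told apart. All 8 mice were male C57Bl/6, went onto a high fat diet at 8 weeks of age, were injected 4 weeks later and were sampled after another 10 weeks, at an age of 22 weeks. RNA of animals 1-4 and of animals 5-8 was mixed in equal amounts within each treatment, which gave 2 ProMyo arrays and 2 saline arrays. The spread between single animals was thus not measured, and the p-values rest on the spread between pools.

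Cells enter the cycle when D-type cyclins activate their kinase partners, which inactivate the retinoblastoma protein and free E2F factors to switch on genes for DNA synthesis. The helicase is loaded onto origins before S phase, and genes for spindle assembly and chromosome segregation are transcribed later, towards mitosis. Adult muscle fibres hold nuclei that have left the cycle for good. Dividing cells in whole muscle are mainly satellite cells, the stem cells of the fibre, and cells of vessels, connective tissue and the immune system, so most mitotic genes are scarce in resting muscle.

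The arrays were alike in their medians, which lay between 1.06 and 1.11 on the log2 scale of the deposited values. The saline array of animals 5-8 stood apart in its spiked-in controls, which averaged 11.1, against 10.1 to 10.2 on the other 3, and its upper quartile was 2.97, against 3.15 to 3.19. Background was set at 0.99, the highest reading among 27 control probe sets for Bacillus genes, which mouse RNA does not hold. That reading came from the saline array of animals 5-8, and the highest on the other 3 arrays was 0.57 to 0.76. Genes that define muscle fibres were present: all 7 fibre markers, among them Acta1 and Ckm, lay above 9.3 on every array. Array number limits the precision here, and over all genes tested the standard error had a median of 0.19. In whole muscle, fewer cells of a type and less RNA per cell cannot be told apart.

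No cell cycle gene passed the test between ProMyo and saline muscle, and neither did any other of the 15102 genes tested. The measured values of Top2a and Mki67 were at least 1.5-fold apart in both pools of animals, both with more signal in ProMyo muscle, and no member lay 1.5-fold lower in both. For Mki67 both saline values were within the background controls, so its measured fold is no bound, and against the highest control its ProMyo mean was at least 1.39-fold higher. Over all genes tested, 1.03% were at least 1.5-fold higher in both pools and 0.563% at least 1.5-fold lower, and with quantile normalization these shares were 0.814% and 0.741%, with the same 2 members higher. The other 4 tested genes of mitotic entry were divided: Cdk1 was higher in both pools, with a mean difference of 0.27, Aurka was lower in both, with -0.38, and Plk1 and Ccnb2 were mixed and near or within the controls.

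The upstream sequences of Top2a and Mki67 are shown because these were the 2 genes whose measured values were 1.5-fold apart in both pools. Each is the 250 bases before the transcription start in RefSeq, on build GRCm38.p6 and the minus strand, at chr11:99024190-99024439 for Top2a and at chr7:135716380-135716629 for Mki67, written 5′ to 3′ in the direction of the gene. Capitals mark matches, on either strand, to CCAAT, the box bound by the factor NF-Y, and to TTTGAA or TTCGAA, the letters of the cell cycle homology region. Matches to the E2F site letters TTTCCCGC and TTTGGCGC were searched too and are in neither sequence.
Top2a: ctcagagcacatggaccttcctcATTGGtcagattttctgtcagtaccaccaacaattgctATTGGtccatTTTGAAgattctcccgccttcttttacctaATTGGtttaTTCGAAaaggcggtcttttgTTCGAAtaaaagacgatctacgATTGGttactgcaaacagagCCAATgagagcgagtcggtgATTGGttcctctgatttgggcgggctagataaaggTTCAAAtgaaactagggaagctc
Mki67: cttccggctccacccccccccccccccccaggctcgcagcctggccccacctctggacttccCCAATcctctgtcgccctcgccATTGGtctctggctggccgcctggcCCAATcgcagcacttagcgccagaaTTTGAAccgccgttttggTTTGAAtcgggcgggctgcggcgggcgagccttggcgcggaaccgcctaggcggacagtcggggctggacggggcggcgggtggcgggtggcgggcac
The Top2a sequence holds 6 matches to CCAAT, 2 to TTTGAA and 2 to TTCGAA, and the Mki67 sequence holds 3 to CCAAT and 2 to TTTGAA. No marked match overlaps another. In the 33 upstream windows found for 31 members, Ccnb1 among them, CCAAT was present in 78.8%, against 33.8% of all 32851 windows of this length. TTTGAA was present in 21.2% of the members' windows, against 16.0% of all, and TTCGAA in 9.09%, against 1.34%. Besides Top2a and Mki67, the windows of Cdk1, Ccnb2, Cdc20, Kif11 and Mcm2 hold both CCAAT and TTTGAA, and the mean differences of these genes were 0.27, -0.29, 0.14, 0.49 and 0.12 (log2). A match of letters is a description and not a binding site.

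Top2a encodes the topoisomerase that untangles replicated chromosomes. Its brightest probe set read 2.54 and 2.64 in the ProMyo pools of animals 1-4 and 5-8, against 1.63 and 0.96 in the saline pools. Both ProMyo arrays lay above both saline arrays, and the saline 5-8 value was within the background controls. The difference was 1.29 ± 0.26 (log2 ± SE, n = 2 pools per group), or 2.44-fold, with 0.91 in animals 1-4 and 1.67 in animals 5-8 (limma, adjusted p = 0.82; unadjusted p = 0.0038). Leaving out the saline 5-8 array, which lay at background, brought it to 0.96, and leaving out the saline 1-4 array to 1.62.

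The other probe sets of Top2a did not speak with one voice. The next brightest read 1.70 and 1.33 in ProMyo muscle, against 0.49 and 0.95 in saline muscle, where both values were within the background controls. Its difference was 0.80, in the same direction in both pools. The third read 0.75 and 0.73 in ProMyo muscle, against 0.85 and 1.42 in saline muscle, and went the other way with -0.39. Only its saline 5-8 value was above the controls. With the mean of all its probe sets in place of the brightest, Top2a no longer reached 1.5-fold in both pools.

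Mki67 encodes the Ki-67 protein, which coats mitotic chromosomes and is the usual marker of dividing cells. Its single probe set read 1.40 and 1.52 in ProMyo muscle, against 0.77 and 0.86 in saline muscle. The ProMyo values were just above the background controls and both saline values within them. The measured difference was 0.65 ± 0.16 (SE, n = 2 pools per group), close in both pools at 0.63 and 0.66 (limma, adjusted p = 0.82; unadjusted p = 0.0088). Its level in saline muscle is thus only bounded by this background. Judged by each array's own highest control, the saline 1-4 value of 0.77 was just above its 0.76, and the saline 5-8 value stayed within.

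**Figure D1:**
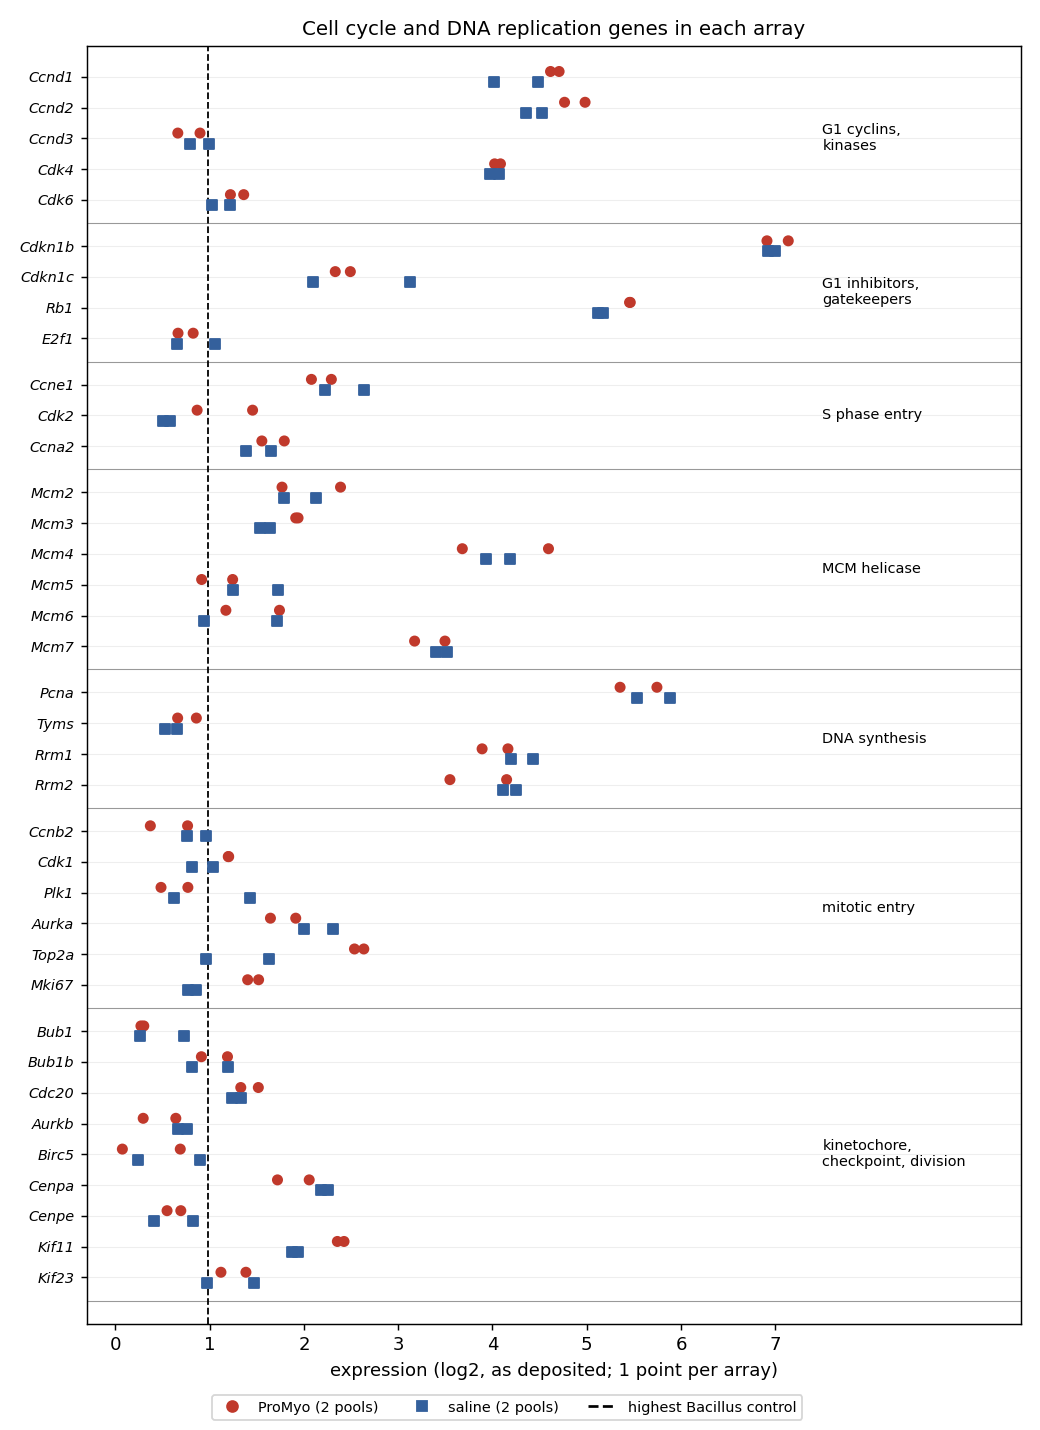
Deposited log2 values of the 37 measured cell cycle genes at their brightest probe set, 1 point per array, with ProMyo arrays as red circles above saline arrays as blue squares in each row and genes grouped by role. The dashed line at 0.99 is the highest Bacillus control: most genes of mitosis sit near or left of it, and the ProMyo points of Top2a and Mki67 lie to the right of their saline points.

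The remaining genes of mitotic entry were dim and divided in direction. Cdk1, the kinase that drives mitosis, read 1.20 in both ProMyo pools, against 1.04 and 0.82 in saline muscle, a difference of 0.27 ± 0.17 (limma, adjusted p = 0.84). The groups did not overlap, but all 4 values were close to the background level. Aurka, the kinase of the spindle poles, read 1.64 and 1.91 in ProMyo muscle, against 2.31 and 2.00 in saline muscle, a difference of -0.38 ± 0.20 (limma, adjusted p = 0.83). Its groups did not overlap either, in the opposite direction to Cdk1. The other probe set of Aurka was within the controls on all 4 arrays and read 0.12. Plk1, the polo-like kinase, read 0.77 and 0.48 in ProMyo muscle, against 0.62 and 1.43 in saline muscle. Its difference of -0.40 was 0.0040 without the saline 5-8 array, the only one above the controls. Ccnb2, a B-type cyclin and partner of Cdk1, was within the controls on all 4 arrays, with 0.77 and 0.37 in ProMyo muscle, against 0.76 and 0.96 in saline muscle.

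Of the genes for kinetochores, the spindle checkpoint and division, Kif11 differed most. Kif11 encodes the motor that pushes spindle poles apart. It read 2.35 and 2.43 in ProMyo muscle, against 1.94 and 1.87 in saline muscle, above the controls throughout. The groups did not overlap, and the difference was 0.49 ± 0.16, with 0.41 and 0.56 in the pools (limma, adjusted p = 0.82; unadjusted p = 0.025). Its other 2 probe sets were within the controls on all 4 arrays and read -0.20 and 0.14. Cenpa, the histone variant that marks centromeres, went the other way: it read 1.72 and 2.06 in ProMyo muscle, against 2.25 and 2.18 in saline muscle, a difference of -0.33 ± 0.19 (limma, adjusted p = 0.83). Its next probe set read -0.26, and its dimmest read 0.03, with opposite signs in the pools. Cdc20, which activates the anaphase-promoting complex, read 1.52 and 1.33 in ProMyo muscle, against 1.23 and 1.34 in saline muscle, with overlapping groups. Kif23, a motor of the midbody, and the checkpoint kinase gene Bub1b differed by 0.03 and 0.05, below their standard errors of 0.23 and 0.21. The checkpoint kinase gene Bub1, the passenger complex genes Aurkb and Birc5, and the kinetochore motor gene Cenpe were within the controls on all 4 arrays, so no level of theirs was measured in either group by this background. Judged by each array's own highest control, Birc5 and Cenpe were above it on at least 1 array.

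The D-type cyclins, which couple growth signals to the cycle, were well above background at 2 of 3 genes. Ccnd2 read 4.98 and 4.76 in ProMyo muscle, against 4.52 and 4.35 in saline muscle. The groups did not overlap, and the difference was 0.44 ± 0.18, with 0.46 and 0.41 in the pools (limma, adjusted p = 0.82; unadjusted p = 0.054). Ccnd1 read 4.62 and 4.71 in ProMyo muscle, against 4.02 and 4.48 in saline muscle, a difference of 0.41 ± 0.21 (limma, adjusted p = 0.83). Here too both ProMyo arrays were above both saline arrays, by a small margin from the saline 5-8 array. The other probe sets were less clear: the 6 others of Ccnd2 read between -0.23 and 0.32, and the next brightest of Ccnd1 read 0.76 in animals 1-4 and -0.34 in animals 5-8. Ccnd3 lay at the background level, above it on 1 array. The partner kinases of these cyclins did not differ beyond their standard errors, with 0.03 ± 0.16 for Cdk4 and 0.17 ± 0.17 for Cdk6.

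Among the gatekeepers of G1, Rb1 and Cdkn1b were bright and E2f1 lay near background. Rb1, the retinoblastoma gene, read 5.45 and 5.46 in ProMyo muscle, against 5.17 and 5.12 in saline muscle. These groups did not overlap, and the difference was 0.31 ± 0.15, with 0.28 and 0.34 in the pools (limma, adjusted p = 0.83, unadjusted p = 0.097). The other probe set of Rb1, within the controls on all 4 arrays, read -0.13. Cdkn1b, an inhibitor of cyclin-dependent kinases that is present in resting cells, read 6.91 and 7.14 in ProMyo muscle, against 6.92 and 6.99 in saline muscle, a difference of 0.07 ± 0.17. Cdkn1c, the related inhibitor that accompanies muscle differentiation, differed by -0.80 in animals 1-4 and by 0.40 in animals 5-8. Its saline pools stood apart, at 3.13 and 2.09, while the ProMyo pools read 2.33 and 2.49 in between. E2f1 was above the controls on 1 array only.

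At entry into S phase, Cdk2, the kinase partner of cyclins E and A, read 1.46 and 0.87 in ProMyo muscle, against 0.58 and 0.51 in saline muscle. Only the ProMyo 1-4 value was above the controls. The measured difference was 0.62 ± 0.24 (limma, adjusted p = 0.82, unadjusted p = 0.047). With the ProMyo 5-8 value and both saline values within the controls, it gives no bound on the fold. The other probe set of Cdk2 was within the controls on all 4 arrays and read -0.13. Ccne1 and Ccna2, the E and A cyclins, had overlapping groups and differences of -0.25 ± 0.21 and 0.15 ± 0.19.

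The replicative helicase is a ring of 6 MCM subunits, and 4 of its 6 genes changed sign between the pools at their brightest probe set. Of all 15102 genes tested, 7094 changed sign or were 0 in 1 pool. In animals 1-4 the median difference of the 6 genes was -0.34, and in animals 5-8 it was 0.18. Over all genes tested these medians were 0 and 0.04. Mcm4 read 3.68 and 4.59 in ProMyo muscle, against 4.19 and 3.93 in saline muscle, so its differences were -0.51 and 0.66. Mcm6 did the same, with 1.17 and 1.74 in ProMyo muscle, against 1.71 and 0.94 in saline muscle, the last within the controls. Mcm7 changed sign the same way, with -0.35 and 0.09, and Mcm2 the opposite way, with 0.26 and -0.03. The next probe sets of these genes, where above the controls on all 4 arrays, did not all follow. That of Mcm7 kept its signs, with -0.44 and 0.55. That of Mcm2 read -1.22 and 0.72, opposite to its brightest. That of Mcm4 was lower in both pools, with -0.76 and -0.38, and the brightest of Mcm4 is of a class whose probes can match other sequences. Mcm3 was higher in both pools and the 1 subunit whose groups did not overlap: it read 1.94 and 1.91 in ProMyo muscle, against 1.54 and 1.64 in saline muscle, a difference of 0.34 ± 0.16 (limma, adjusted p = 0.83). That probe set is of a class whose probes are shared between transcripts, and the other probe sets of Mcm3 read 0.14, 0.08, 0.19 and -0.22. Mcm5 was lower in both pools, with differences of -0.33 and -0.48 and with overlapping groups. Its ProMyo 1-4 value was within the controls, and its brightest probe set is of the class that can match other sequences. The other probe sets of Mcm5 were within the controls on all 4 arrays and read -0.06 and 0.10. Whether the difference between the pools exceeds chance was not tested.

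Of the 4 genes of DNA synthesis, Rrm1 and Rrm2 were lower in both pools, Tyms was higher in both and Pcna was mixed, and none passed the test. Rrm1, the large subunit of ribonucleotide reductase, which makes deoxynucleotides, read 4.16 and 3.89 in ProMyo muscle, against 4.42 and 4.19 in saline muscle. Both ProMyo arrays were below both saline arrays, by a narrow margin, and the difference was -0.28 ± 0.19 (limma, adjusted p = 0.85). The other probe sets of Rrm1, within the controls on all 4 arrays, read 0.33 and -0.19. Rrm2, the small subunit of the same enzyme, differed by -0.33 ± 0.24, with overlapping groups. That value came from a probe set of a class whose probes can match other sequences, while the other 2 probe sets of Rrm2 were within the controls on all 4 arrays, so it may not read Rrm2 alone. Pcna, the sliding clamp of the DNA polymerases, read 5.35 and 5.74 in ProMyo muscle, against 5.88 and 5.53 in saline muscle, with differences of opposite sign in the pools. Tyms, thymidylate synthase, was within the controls on all 4 arrays, with differences of 0.33 and 0.0071 in the pools.

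**Figure D2:**
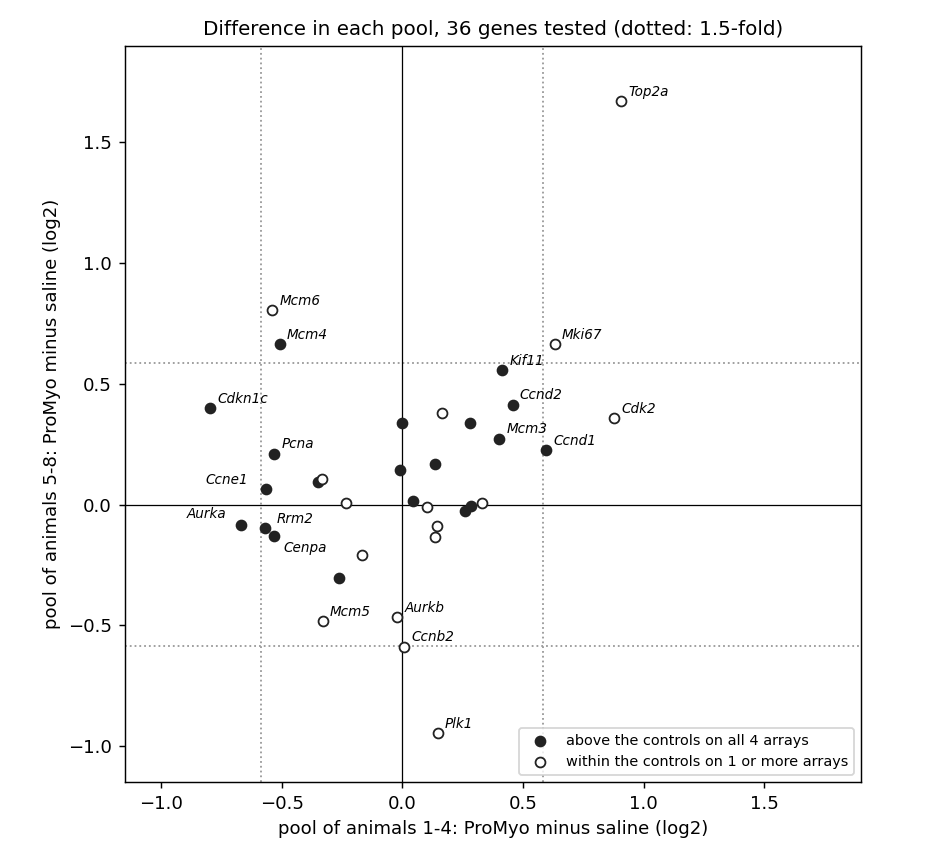
Difference of ProMyo minus saline (log2) in the pool of animals 1-4 on the horizontal axis and of animals 5-8 on the vertical axis, 1 point per gene for the 36 genes tested, open where 1 or more arrays were within the controls. Only Top2a and Mki67 lie beyond the dotted 1.5-fold lines in both pools, while Mcm4, Mcm6, Pcna and Cdkn1c fall in the quadrant of opposite signs.

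Counted over all roles, 20 of the 37 measured genes were above the background controls on all 4 arrays, 11 on some and 6 on none. With each array's own highest control as its background, 23 were above it on all 4 arrays and 2 on none. Of the 36 tested, 12 had more signal in ProMyo muscle in both pools, 7 had less in both and 17 had differences that changed sign or were 0 in 1 pool. Over all genes tested, 29% were higher in both pools and 24% lower. The members' shares were thus near the background. The groups did not overlap at 10 members with ProMyo above saline and at 4 with ProMyo below, and over all genes this held for 17.8% and 15.7%. The median difference of the members was 0.04, with 0.02 in animals 1-4 and 0.08 in animals 5-8. Over all genes tested the median was 0.01, with 0 in animals 1-4 and 0.04 in animals 5-8. The 20 members above background on all arrays had a median of 0.07, against 0.04 for the 10540 such genes of the array.

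The limma test called 0 of the 36 members, as it did 0% of all 15102 genes (smallest adjusted p = 0.82). Unadjusted p was under 0.05 for Top2a, Mki67, Kif11 and Cdk2, which is 4 members, and for 5.79% of all genes. With the pools as a replicate block the count of calls stayed at 0, and 5 members had an unadjusted p under 0.05. At a lower threshold, a difference of at least 0.32 on the log2 scale in both pools, 5 members were higher, these 4 and Ccnd2, and Mcm5 was lower, where the array as a whole gave 4.81% and 3.68%.

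How far a gene's difference held at its other probe sets varied. The 37 genes had 94 probe sets, and 30 genes had more than 1. Of these 94, 56 were above the controls on at least 1 array and 34 on all 4. In 7 genes (Cdk4, E2f1, Ccne1, Mcm4, Mcm5, Mcm7 and Rrm2) the brightest probe set belonged to the class marked x, in which some probes match other sequences too, and in Mcm3 and Aurkb to the class marked s, in which probes are shared between transcripts. At the next brightest probe set 20 members remained above the filter. Of those 20, 4 were higher in both pools and 7 lower, and none reached 1.5-fold in both. Over all genes read this way, 27.6% were higher in both pools and 23.5% lower. At least 1.5-fold in both were 1.28% higher and 0.493% lower. The median of the 20 members was -0.16, against 0.0099 for all genes, and 12 of the 20 differences had the opposite sign to the brightest probe set.

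**Figure D3:**
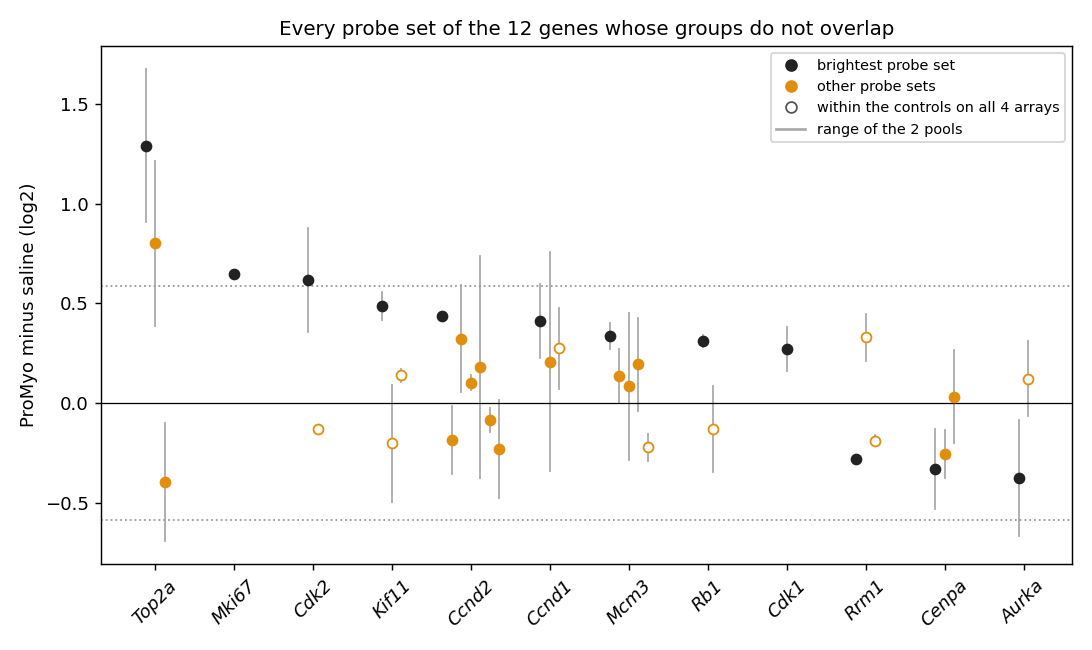
Mean difference of ProMyo minus saline (log2) at every probe set of the 12 genes whose ProMyo and saline arrays did not overlap and which were above the controls on at least 1 array, with grey bars spanning the values of the 2 pools and open points for probe sets within the controls on all 4 arrays. Brightest probe sets (black) and the others (orange) are shown side by side: Top2a has 1.29, 0.80 and -0.39, and Mki67 and Cdk1 have a single probe set each.

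Other genes of the cycle were read from lists of 114 genes with related roles, of which 111 had a probe set and 104 were tested. None passed the limma test, which called 0% of all genes (smallest adjusted p = 0.82), and 8 had an unadjusted p under 0.05, against 5.79% of all genes. In both pools 32 were higher and 25 lower, near the 29% and 24% of all genes, with a median difference of 0.03. At least 1.5-fold in both pools by measured values were 4 genes, all higher in ProMyo muscle, against 1.03% of all genes. Gmnn, geminin, which blocks the loading of the helicase outside its proper time, read 4.26 and 3.75 in ProMyo muscle, against 3.03 and 3.00 in saline muscle, a difference of 0.99 ± 0.22 (limma, adjusted p = 0.82; unadjusted p = 0.0059). Cdkn2b, an inhibitor of the cyclin D kinases, read 1.75 and 1.56 in ProMyo muscle, against 0.94 and 0.72 in saline muscle, where it was within the controls. Its measured difference was 0.83 ± 0.18, and the ProMyo mean was at least 1.59-fold above the highest control (limma, adjusted p = 0.82).

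Hmgb2, a chromatin protein abundant in dividing cells, read 2.93 and 3.29 in ProMyo muscle, against 2.01 and 2.44 in saline muscle, a difference of 0.89 ± 0.23 (limma, adjusted p = 0.82). Its next probe set read 0.46. Cdca8, a subunit of the passenger complex that also holds Aurkb and Birc5, read 2.21 and 3.09 in ProMyo muscle, against 1.61 and 1.39 in saline muscle, a difference of 1.15 ± 0.32 (limma, adjusted p = 0.82). Its next probe set read 0.05, so the difference was not seen there. All 4 genes had groups that did not overlap, which the rule that picked them favours, so this adds no support. Of the 104 list genes tested, 24 had ProMyo above saline without overlap and 21 had it below, against 17.8% and 15.7% of all genes. Cdkn1a, another inhibitor of cyclin-dependent kinases, singled out after its values were seen, read 3.03 and 2.93 in ProMyo muscle, against 3.91 and 3.09 in saline muscle, a difference of -0.52 ± 0.30 (limma, adjusted p = 0.84).

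By list, the 19 other genes of G1 and its inhibitors had a median of 0.09, with 7 higher and 3 lower in both pools. The 39 other replication genes had a median of -0.01, with 10 higher and 10 lower. Like the MCM genes, they had a lower median in animals 1-4, at -0.16, than in animals 5-8, at 0.13. Over all genes tested these medians were 0 and 0.04, a shift in the same direction. The 46 other mitosis genes had a median of 0.01, with 15 higher and 12 lower.

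**Figure D4:**
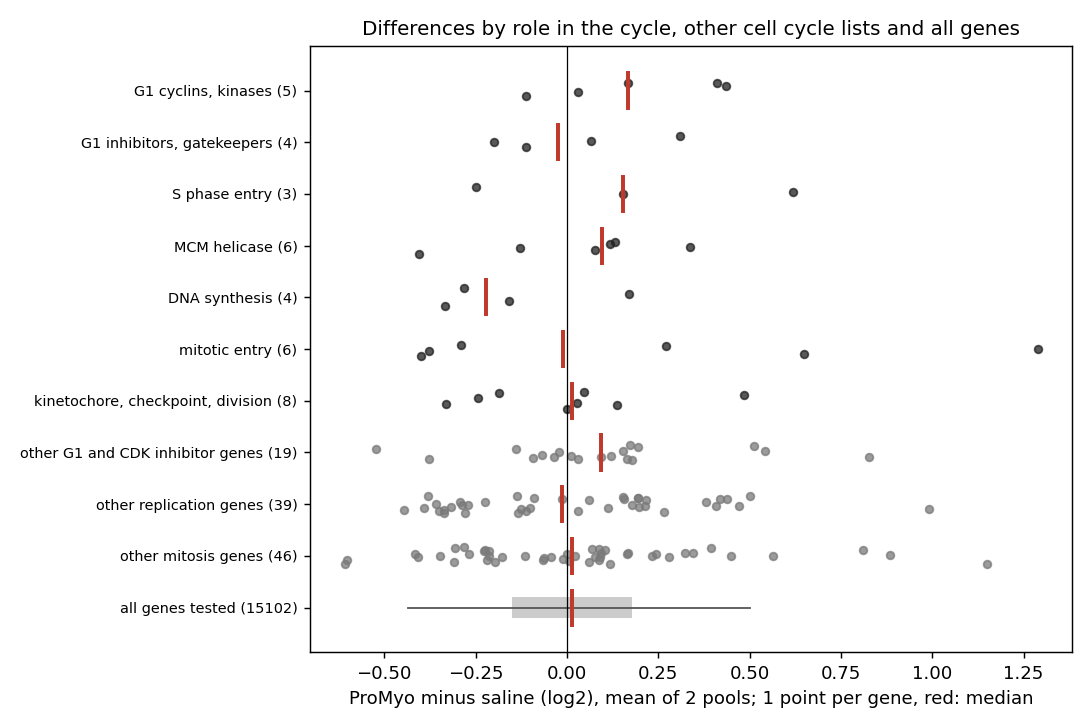
Difference of ProMyo minus saline (log2, mean of the 2 pools), 1 point per tested gene, for the cell cycle genes by role (black), the further lists (grey) and all genes tested (box from the 25th to the 75th percentile, line from the 5th to the 95th), with medians in red and the number of genes in brackets. The medians of the roles lie between -0.22 for DNA synthesis and 0.17 for G1 cyclins and kinases, and Top2a is the point furthest to the right among the members.

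Markers of cells that could divide in the muscle were read in the same way, as the summed linear signal of each list, and their part in the differences of Top2a, Mki67 and Kif11 was not tested. The 7 markers of satellite cells and myoblasts summed to 44.0 and 45.4 in ProMyo muscle, against 70.7 and 38.6 in saline muscle. Myod1 was the brightest of the 7 on every array and weighs most in these sums. It read 4.33 and 4.19 in ProMyo muscle, against 5.39 and 3.98 in saline muscle. None of the 6 tested markers was higher or lower in both pools. Their defining gene Pax7 read 1.95 and 1.97 in ProMyo muscle, against 2.03 and 1.71 in saline muscle, Myog was above the controls on 1 array and Calcr on none. Satellite cell signal thus overlapped between the groups. The 8 macrophage markers summed to 182.1 and 166.8 in ProMyo muscle, against 237.6 and 195.2 in saline muscle, so both ProMyo arrays were lower. Of them, 4 were lower in both pools and 1 higher. The 3 markers of all leukocytes summed to 33.3 and 29.3 in ProMyo muscle, against 40.9 and 34.0 in saline muscle. Laptm5 and Coro1a were lower in both pools, while Ptprc, which encodes CD45, was mixed, with differences of 0.36 and -0.08.

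The 8 measured markers of T and B cells summed to 13.9 and 14.7 in ProMyo muscle, against 12.6 and 14.7 in saline muscle. None of them was above the controls on all 4 arrays, and of the 7 tested 2 were higher in both pools (Cd3e and Cd8a), 1 was lower (Ms4a1) and 4 were mixed. Cd3e and Cd8a were above the controls on both ProMyo arrays and on neither saline array, and their ProMyo means were at least 1.14-fold and 1.19-fold above the highest control (limma, adjusted p = 0.83 for each). Endothelial markers, 6 in number, summed to 105.1 and 114.7 in ProMyo muscle, against 108.6 and 94.99 in saline muscle, and those of fibro-adipogenic progenitors, also 6, to 813.7 and 787.7 in ProMyo muscle, against 935.1 and 1057 in saline muscle. Of these 6, 4 were lower in both pools: Pi16 (-0.96), Col1a1 (-0.68), Col3a1 (-0.19) and Pdgfra (-0.10). Lum was higher in both (0.63) and Dcn was mixed (0.03). Col1a1 was the brightest of the 6 in both groups, with means of 8.11 and 8.79, so it weighs most in the sum. The 3 measured erythroid markers were within the controls on every array. Fibre markers summed to 25943 and 24905 in ProMyo muscle, against 23708 and 22499 in saline muscle, and all 7 were higher in both pools, with a median of 0.14. The 3′ minus 5′ signal of Gapdh, which follows RNA integrity and labelling, was 0.58 and 0.74 in ProMyo muscle, against 0.90 and 0.81 in saline muscle, and its part in the results was not tested.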

How the data were processed

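The samples were 4 Affymetrix arrays of mouse tibialis cranialis RNA, 2 from ProMyo and 2 from saline muscle, each a mixture from 4 animals per the labels. RNA was amplified and biotin-labelled with Nugen kits, per the labels' protocols. The authors deposited log2 values for each probe set; the submitters' processing notes name RMA and Affymetrix Expression Console, with no version. The log base is unstated and was read as 2 from the range of values. RMA usually gives higher medians than the 1.1 seen here, so folds hold on the deposited scale.

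Of 45101 probe sets, 34958 had 1 symbol, 932 several and 9211 none in the platform table, and the 64 array controls were left out. Symbols were checked against RefSeq by gene identifier (34741 matched, 0 changed). Genes were read at the brightest probe set by the mean of 4 arrays, and those with a mean under the 25th percentile (0.45) were not tested. Differences of ProMyo minus saline were tested in limma 3.58.1 (R 4.3.3), with Benjamini-Hochberg adjustment over 15102 genes at 0.05, and by counting genes at least 1.5-fold apart within both pools. The code of the test was checked on simulated data in which all genes had the same spread. That check does not measure how well the test finds differences on these arrays.

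Same-numbered pools come from the same animals, so the pools are paired by design; across genes, the deviations of paired pools had a correlation of 0.16. The main fit left this pairing out. Upstream sequences came from RefSeq. The members and lists were chosen with earlier results of these data known. Named genes were all members, the genes of the further lists at 1.5-fold in both pools with 1 group above background, and the markers listed for each cell type; other names say so. Alternatives were the replicate block, 2 other filters, a variance trend, median centring, quantile normalization, other uses of a gene's probe sets, other thresholds, and each array left out; leaving out probe sets of classes x and s was added after seeing the data.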

Additional observations from a re-analysis of the deposited data

How the results depend on the processing

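With all 4 arrays, the members called stayed at 0 under every alternative listed in the methods, a Benjamini-Hochberg threshold of 0.1 among them. The test called 0 of all genes at these settings too, so the steady count says nothing particular about the members. In the main fit 4 members had an unadjusted p under 0.05. With the replicate block, 0 were called, 2 were at least 1.5-fold higher in both pools, 5 had an unadjusted p under 0.05, and no call changed. The count of 2 higher members was 1 with the mean of all probe sets (Mki67), 0 at the next brightest probe set, 5 at a log2 threshold of 0.32 and 0 at 2-fold; leaving out each array gave 1 to 3, where both differences share an array. It was 1 without the saline 1-4 array (Top2a) and 3 without the saline 5-8 array (Ccnd1 too), while Cdk2 took the place of Mki67 without ProMyo 5-8. The count of 0 lower members was 1 at 0.32 and 0 to 1 without an array (Plk1 without saline 1-4, Cdkn1c without saline 5-8). Members higher in both pools numbered 4 at the next brightest probe set and 13 to 15 without an array, against 12. Members lower in both pools numbered 7 to 13 without an array, with 13 without ProMyo 5-8 and 12 without saline 1-4, against 7. Over all genes, leaving out each array gave 29.5% to 42.7% higher in both pools and 27.3% to 36.9% lower. With all arrays these shares were 29% and 24%. At least 1.5-fold in both, 1.68% to 4.53% were higher and 1.11% to 2.72% lower without an array, against 1.03% and 0.563%. At the next brightest probe set, 27.6% of all genes were higher in both pools and 1.28% at least 1.5-fold higher.

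The median difference was 0.10 with the filter at the 50th percentile, -0.051 with the mean of probe sets, -0.16 at the next brightest probe set, and between -0.071 (without ProMyo 5-8) and 0.065 without an array, against 0.04. Judged by each array's own highest Bacillus control, 2 members were above the controls on no array, against 6. The cause of these shifts was not tested, except that fewer genes have a second probe set above the filter. Without an array, a lone array is assumed to vary like the other group. Signal near background limits most mitotic genes.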
